A study of Rattus norvegicus with 6 samples.

Results

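Tubular injury markers are genes that kidney tubule cells switch on, or whose products they shed, after damage. The set described here has 9 genes, taken by name: Clu, Havcr1, Lcn2, Spp1, Vcam1, Sox9, Cd44, Anxa2 and Il18. Of these, 8 were found by symbol in the deposited table of 18930 genes, and Sox9 was not analysed here. The cells were NRK-52E, an established wild-type line of kidney epithelial cells from the rat. RNA was sequenced from 3 samples treated with 10 mM of streptozotocin (STZ) for 24 h and from 3 Control samples, which the study describes as vehicle-treated. STZ is a sugar-linked nitrosourea that alkylates DNA. All samples came from 1 cell line in culture, without the vessels and immune cells of a kidney. The sources do not say whether samples of a group were separate cultures, so p-values measure only the spread between these samples.

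As background, an injured proximal tubule cell loses its brush border, flattens, and starts to make proteins that are scarce in the healthy kidney. Some are secreted and can be measured in urine, such as clusterin (Clu), a chaperone that binds misfolded proteins outside the cell, and lipocalin-2 (Lcn2), which binds iron-carrying siderophores. Others sit on the cell surface, such as Kim-1 (Havcr1), a receptor for dying cells, and Cd44, the receptor for hyaluronan. Spp1 encodes osteopontin, a secreted ligand of integrins and of Cd44, and Vcam1 is an adhesion molecule for leukocytes.

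Clusterin, Cd44 and osteopontin rose in STZ-treated cells. Clu was 2.22-fold higher than in Control (95% interval 2.12 to 2.34, n = 3 per group), Cd44 was 2.15-fold higher (1.98 to 2.34) and Spp1 was 1.29-fold higher (1.22 to 1.35). Anxa2 and Lcn2 were tested and did not pass. Havcr1, Vcam1 and Il18 had no more than 2 reads in a sample and lay under the filter on low counts. Of the 8 genes listed, 5 were therefore tested, of which 3 rose and 0 fell at a Benjamini-Hochberg adjusted p-value under 0.05, from the quasi-likelihood test of edgeR over 11870 genes. At an unadjusted p under 0.05, and under the 4 other tests run, 0 members were lower as well. At that threshold 50.9% of all genes tested were called, 25.9% as higher and 25.1% as lower. Clu and Cd44 also had an absolute log2 fold change over 1, as did 3.37% of all genes tested, 2.26% in the direction of a rise. The median log2 fold change of the 5 members tested was 0.36, and that of all genes tested was -0.0055. In bulk cultures, fewer cells that express a gene and less of its RNA per cell cannot be told apart.

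Reads summed to between 10430924 and 15191349 per library. Levels are given as CPM, the counts of a gene scaled to a library of a common size, after correction by edgeR's TMM factors of 0.988 to 1.02. They were not divided by transcript length, so a gene is compared between samples and not with another gene. A count of 0 allows a level of up to 0.200 to 0.283 CPM, depending on the library (3 counts per library, counting error only).

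**Figure D1:**
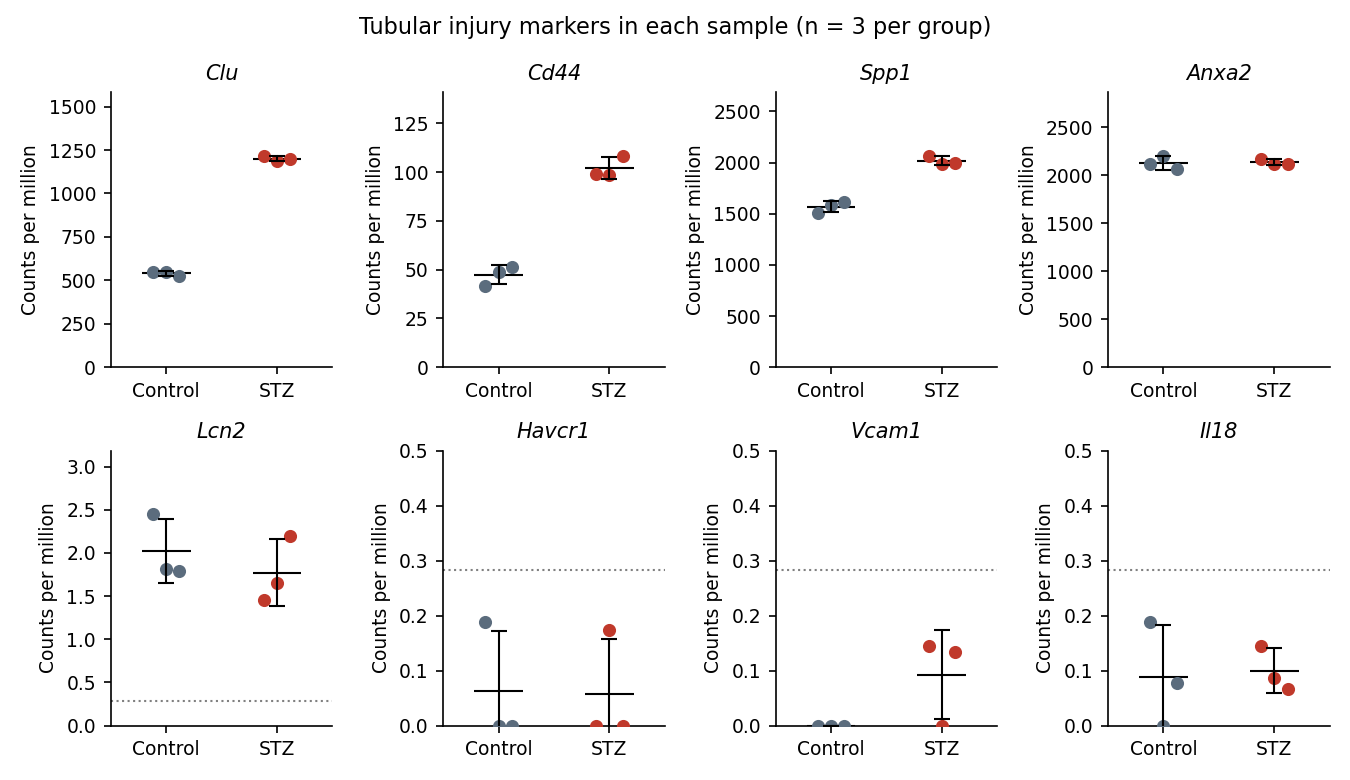
Level of each injury marker in CPM (vertical axes, each from 0) in the 3 Control and 3 STZ samples, with each point a sample, the bar the group mean and the whiskers 1 SD, cut off at 0. The groups stand apart for Clu, Cd44 and Spp1 and overlap for Anxa2 and Lcn2, while Havcr1, Vcam1 and Il18 lie under the dotted line, the level that 3 reads give in the shallowest library (0.283 CPM).

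Clusterin had 546, 551 and 523 CPM in Control replicates 1, 2 and 3. It had 1218, 1186 and 1198 CPM in STZ replicates 1, 2 and 3. Every STZ sample lay above every Control sample, with little spread in either group. The means were 540 ± 14.9 in Control and 1201 ± 16.4 in STZ (SD, n = 3), and the log2 fold change was 1.15 ± 0.035 (SE, the standard error of the fit, adjusted p = 3.08e-28 by edgeR). Only 204 of the 11870 genes tested, 1.72%, had a larger log2 fold change.

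Cd44, which anchors cells to hyaluronan and is a marker of tubule cells in repair, was measured at a lower depth. It had 41.9, 49.0 and 51.2 CPM in the Control samples. It had 99.1, 98.8 and 109 CPM in the STZ samples. The lowest STZ sample was well clear of the highest Control sample, although Control replicate 1 lay under the other 2. The log2 fold change was 1.11 ± 0.058 (SE, adjusted p = 6.12e-20 by edgeR), and 1.88% of the genes tested had a larger one. The interval of the log2 fold change, 0.99 to 1.22, reached just under the threshold of 1.

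Osteopontin had 1505, 1586 and 1614 CPM in the Control samples. In the STZ samples it had 2069, 1989 and 1993 CPM. The groups did not overlap, and the step between them was smaller than for Clu or Cd44. The log2 fold change was 0.36 ± 0.035 (SE, adjusted p = 1.07e-11 by edgeR), under the fold threshold of 1, and 12.7% of the genes tested had a larger one. Groups that did not overlap, with STZ above Control, were seen in these 3 members and in 28.6% of all genes tested, and with STZ below Control in 0 members and in 27.7% of all genes tested.

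Annexin A2, a calcium-dependent protein that links membranes to actin and binds plasminogen at the cell surface, was read deeply and did not pass the test. It had 2122, 2206 and 2064 CPM in the Control samples and 2170, 2122 and 2120 CPM in the STZ samples. The STZ values fell inside the range of the Control values. The log2 fold change was 0.0048 with a 95% interval of -0.065 to 0.075 (adjusted p = 0.921 by edgeR), so these data leave room for a change of at most 1.05-fold in either direction at that confidence. The sign of so small a value depended on the scaling, since library size alone gave -0.029.

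Lipocalin-2, among the most used urinary markers of acute kidney injury, had 26, 20 and 23 reads in the Control samples. It had 20, 19 and 33 reads in the STZ samples. The groups overlapped, at 2.02 ± 0.373 CPM in Control and 1.77 ± 0.388 CPM in STZ (SD, n = 3). The log2 fold change was -0.17 with an interval of -0.71 to 0.37 (adjusted p = 0.631 by edgeR). A rise like that of Clu lies outside this interval, and a change within it was not detectable at this depth.

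The remaining members were close to absent from the reads. Havcr1 had 2, 0 and 0 reads in the Control samples and 0, 2 and 0 in the STZ samples. Il18, a cytokine that caspase-1 releases in its active form, had 2, 0 and 1 reads in Control and 2, 1 and 1 in STZ. Vcam1 had 0 reads in all 3 Control samples and 2, 0 and 2 reads in the STZ samples. Each of these values lay under the 3 reads that a count of 0 allows, so no fold change is given and no direction is read from them. With no filter on low counts, the adjusted p-values were 0.951 for Havcr1, 0.949 for Il18 and 0.21 for Vcam1 (edgeR, over all genes of the table). Small p-values of that fit are not on the scale of the main fit. That of Clu went from 3.08e-28 to 6.46e-242 and that of Cd44 from 6.12e-20 to 1.44e-85 (adjusted, edgeR).

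**Figure D2:**
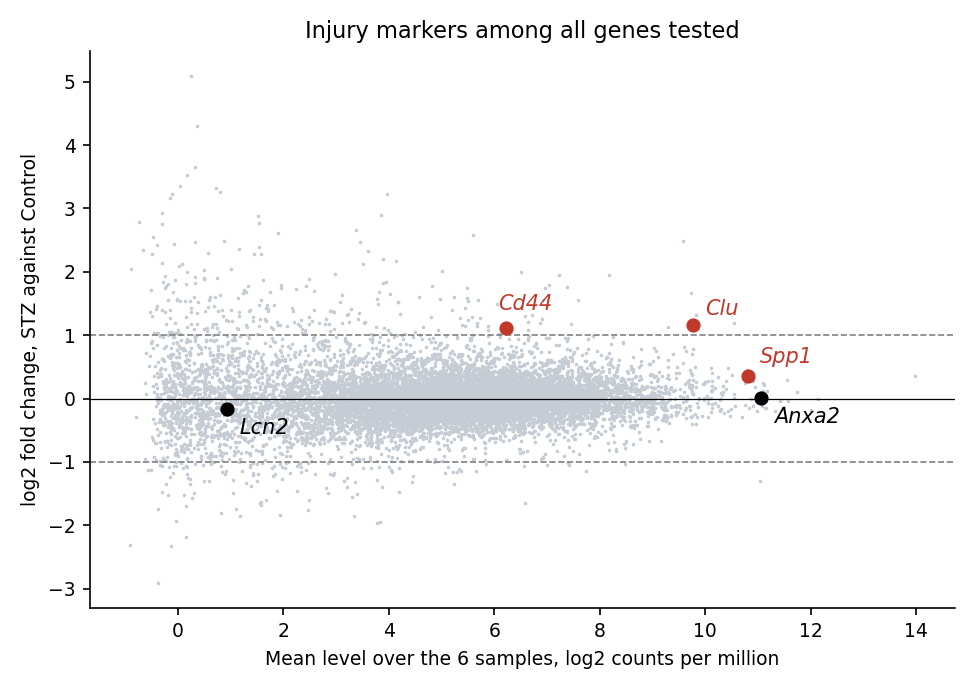
Each point is a gene tested, by its mean level over the 6 samples (horizontal axis, log2 CPM, not divided by length) and its log2 fold change of STZ against Control (vertical axis), with dashed lines at 1 and -1. Red members passed the test and black ones did not: Clu (1.15) and Cd44 (1.11) sit just above the upper line, Spp1 (0.36) between the lines, and Anxa2 (0.0048) and Lcn2 (-0.17) near 0.

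Promoter sequences of the members are shown to set the regions upstream of 2 genes that rose, Cd44 and Spp1, beside that of a deeply read gene that did not pass, Anxa2. Promoters came from a RefSeq table (build GRCr8), in which 7 of the 9 members were matched by symbol, and those of Clu and Sox9 were not used here. The 250 bases before the start of each gene were searched on both strands for the AP-1 motif TGANTCA, which Fos and Jun proteins bind, and for the letters TATAAA of a TATA box, and both are in capitals. The reads were mapped by the authors to another build (Rnor6).
Cd44, chr3:109699425-109699674, minus strand: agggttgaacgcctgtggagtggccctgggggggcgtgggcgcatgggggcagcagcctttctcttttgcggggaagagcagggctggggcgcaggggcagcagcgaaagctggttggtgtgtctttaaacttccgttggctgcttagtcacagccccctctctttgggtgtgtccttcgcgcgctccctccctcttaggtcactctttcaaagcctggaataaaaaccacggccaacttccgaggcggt
Spp1, chr14:5619805-5620054, minus strand: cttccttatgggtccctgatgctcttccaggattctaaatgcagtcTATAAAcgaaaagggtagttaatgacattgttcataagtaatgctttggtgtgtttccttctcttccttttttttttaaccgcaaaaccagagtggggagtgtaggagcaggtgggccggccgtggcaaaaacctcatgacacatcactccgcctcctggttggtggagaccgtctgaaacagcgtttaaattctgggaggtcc
Anxa2, chr8:78986002-78986251, plus strand: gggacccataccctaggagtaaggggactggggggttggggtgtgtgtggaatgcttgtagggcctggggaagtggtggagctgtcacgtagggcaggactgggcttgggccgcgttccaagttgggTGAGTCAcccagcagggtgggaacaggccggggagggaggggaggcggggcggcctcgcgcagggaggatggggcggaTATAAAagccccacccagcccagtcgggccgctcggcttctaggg

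The AP-1 letters were found in 1 of the 7 promoters, that of Anxa2, from 123 to 117 bases before the start, and in 6.34% of 33469 rat promoters of the same length. TATAAA was found in the promoters of Anxa2, Spp1 and Vcam1, against 12.9% of all promoters. In Anxa2 it lay 45 to 40 bases before the start and in Spp1 204 to 199 bases before it. Matches to the NF-kB consensus were found in Lcn2 and Vcam1 (3.54% of all promoters), which held no AP-1 match, and 0 of the 7 held a p53 half-site (6.64% of all). Such matches describe letters and not bound sites.

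Further markers of tubular injury and repair, from a list of 32 genes, were mostly higher in STZ-treated cells. Of the 26 found in the table, 17 were tested, 12 were higher and 2 lower at an adjusted p-value under 0.05, and 3 did not pass, where 25.9% of all genes tested were higher and 25.1% lower. Their median log2 fold change, Ccl2 included, was 0.45. This list and those below were chosen with earlier results of these data known, so their shares are descriptions and not tests. Of the 32 genes, 6 are also in another list, so the lists are not independent. The surface adhesion molecule Icam1 rose from 89.5 ± 1.67 to 175 ± 2.29 CPM (SD, n = 3), a log2 fold change of 0.96 ± 0.044 (SE, adjusted p = 4.33e-22 by edgeR). Heme oxygenase Hmox1, which degrades heme under oxidative stress, rose from 12.7 ± 0.816 to 43.7 ± 2.39 CPM, a log2 fold change of 1.78 (adjusted p = 4.7e-22 by edgeR). Galectin-3 (Lgals3), B2m (the light chain of MHC class I) and Timp1 (an inhibitor of matrix metalloproteinases) rose with log2 fold changes of 0.70, 0.71 and 0.65. The 2 that fell were the chemokine Cxcl1 and the intermediate filament gene Vim, with log2 fold changes of -0.47 and -0.12, named after their values were seen. Without Control replicate 3, Vim had a log2 fold change of -0.082 and lost its call (adjusted p = 0.0537 by edgeR). The chemokine Ccl2, also named after its values were seen, had 3, 1 and 2 reads in the Control samples and 23, 15 and 31 in the STZ samples. It passed the filter through its STZ samples, and its Control reads did not exceed the 3 that a count of 0 allows, so no fold change is given. With no filter its adjusted p-value was 1.12e-09 (edgeR, over all genes of the table), which is not on the scale of the main fit. Under the filter of 10 counts in every sample, 11 genes of the list were higher and 2 lower. The other 9 genes of the list, with at most 12 reads in any sample, lay under the filter. Of these, the stress cytokine Gdf15, named after its values were seen, passed when no filter was used (adjusted p = 0.0015 by edgeR). It had 1, 0 and 1 reads in Control and 7, 5 and 12 in STZ. Its Control reads lay under the 3 that a count of 0 allows, so no fold change is given. With no filter the list had 13 genes higher and 2 lower.

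Receptors, ligands and partners of the members changed in both directions. Of 41 such genes, 36 were in the table and 25 were tested. Of these, 12 were higher, 5 were lower and 8 did not pass, beside 25.9% of all genes tested that were higher and 25.1% lower. The median log2 fold change was 0.14. Under the filter of 10 counts in every sample, 11 were higher and 3 lower. The hyaluronan synthases Has1 and Has3, among those lower, are named after their values were seen. Has1 had 24, 16 and 13 reads in Control and 10, 8 and 9 in STZ. Has3 had 12, 18 and 16 in Control and 12, 7 and 11 in STZ. Both passed the filter only through their Control samples, and with no filter their adjusted p-values were 0.00507 and 0.0751 (edgeR). Among receptors of osteopontin, the integrin subunit Itgav rose from 445 ± 30.9 to 579 ± 16.1 CPM (SD, n = 3), a log2 fold change of 0.38 (adjusted p = 1.21e-10 by edgeR). Other integrin subunits of the list are named after their values were seen. Itga5 rose by 0.16 on the log2 scale (adjusted p = 0.00222 by edgeR). Itgb1 and Itgb5 had log2 fold changes of 0.052 and 0.050 and did not pass (adjusted p = 0.204 and 0.245 by edgeR). Itgb3 and Itga9 were under the filter, with at most 4 and 16 reads in a sample. Moesin (Msn), which ties the tail of Cd44 to actin, rose by a log2 fold change of 0.42 (adjusted p = 5.31e-13 by edgeR), and the sheddase Adam17 rose by 0.35. Relatives of both are named after their values were seen. Radixin (Rdx) fell by 0.26 on the log2 scale (adjusted p = 2.75e-06 by edgeR), ezrin (Ezr) had a log2 fold change of 0.041 and did not pass (adjusted p = 0.351 by edgeR), and the sheddase Adam10 fell by 0.21 on the log2 scale (adjusted p = 3.21e-05 by edgeR).

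Partners of annexin A2 rose while Anxa2 itself did not pass the test. S100a10, which forms a complex with annexin A2, had 306, 316 and 301 CPM in the Control samples and 365, 364 and 386 CPM in the STZ samples. The groups did not overlap, and the log2 fold change was 0.27 ± 0.038 (SE, adjusted p = 6.83e-08 by edgeR). Ahnak, a large scaffold protein that binds this complex, rose by a log2 fold change of 0.31 (adjusted p = 8.21e-09 by edgeR). Whether the change of S100a10 differed from that of Anxa2 was not tested.

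The signalling partners of Il18 were followed although Il18 was under the filter, and they are named after their values were seen. The soluble inhibitor Il18bp rose from 5.05 ± 0.528 to 8.95 ± 0.96 CPM (SD, n = 3), a log2 fold change of 0.84 (adjusted p = 7.75e-06 by edgeR). The receptor chain Il18rap had 3, 7 and 7 reads in Control and 29, 16 and 26 reads in STZ. It passed the filter only through its STZ samples, so its log2 fold change of 1.81 is given as a description, and with no filter its adjusted p-value was 1.74e-05 (edgeR). Il18r1 rose by 0.41 on the log2 scale (adjusted p = 0.0312 by edgeR), a call that was lost without Control replicate 2 (adjusted p = 0.104), Control replicate 3 (0.0531) or STZ replicate 2 (0.116), and by DESeq2 (0.103). Counts per sample did not exceed 11 reads for caspase-1, 1 read for its adaptor Pycard and 4 reads for Lrp2, a receptor of clusterin and lipocalin-2. The receptor genes Lrp8 and Vldlr of the same list, also named after their values were seen, were tested. Lrp8 fell by 0.26 on the log2 scale and Vldlr rose by 0.46 (adjusted p = 0.00181 and 0.0319 by edgeR).

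Within the annexin family, a rise was seen in 3 of the 9 genes tested, where 25.9% of all genes tested were higher, and 0 fell by edgeR, by any of the 4 other tests or at an unadjusted p under 0.05. Anxa8 had 19.0, 21.0 and 21.3 CPM in the Control samples and 70.0, 67.5 and 69.1 CPM in the STZ samples. Its log2 fold change was 1.75 ± 0.066 (SE, adjusted p = 5.93e-25 by edgeR), and the groups were far apart. Anxa1, which dampens inflammation, rose by a log2 fold change of 0.45 and Anxa5, which binds exposed phosphatidylserine, by 0.25. Anxa11 and Anxa7 had log2 fold changes of 0.095 and 0.094 (adjusted p = 0.0529 and 0.0532 by edgeR) and groups that did not overlap. The values of Anxa4, Anxa3 and Anxa6 were 0.062, 0.011 and -0.024, none past the test. Library size alone and the upper quartile turned the sign of Anxa3 to -0.023 and -0.0088, as library size did for Anxa2.

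**Figure D3:**
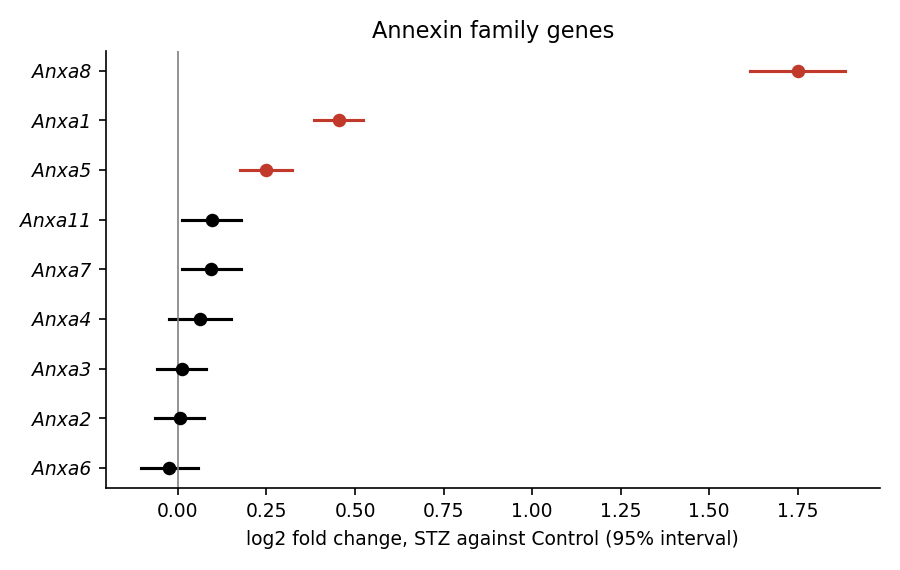
log2 fold change of STZ against Control (horizontal axis) for the 9 annexin genes tested, each with its 95% interval. Anxa8 (1.75), Anxa1 (0.45) and Anxa5 (0.25), in red, passed the test, and the other 6, in black, lie between -0.024 and 0.095.

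Transcription factors known to act upstream of injury markers were tested for all 29 of 32 that were in the table. Of them, 15 were higher, 7 lower and 7 not past the test, with a median log2 fold change of 0.19, where 25.9% of all genes tested were higher and 25.1% lower. The AP-1 factors moved in both directions. Fos, an immediate early gene, fell from 68.8 ± 2.93 to 31.4 ± 3.08 CPM (SD, n = 3), a log2 fold change of -1.14 (adjusted p = 6.12e-19 by edgeR). Fosl1, a related AP-1 subunit, rose from 3.32 ± 1.01 to 18.7 ± 1.70 CPM, a log2 fold change of 2.46 (adjusted p = 2.73e-18 by edgeR). Egr1, also an immediate early gene, fell by 0.99 on the log2 scale, the stress factor Atf3 rose by 1.71 and Jund rose by 0.47.

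**Figure D4:**
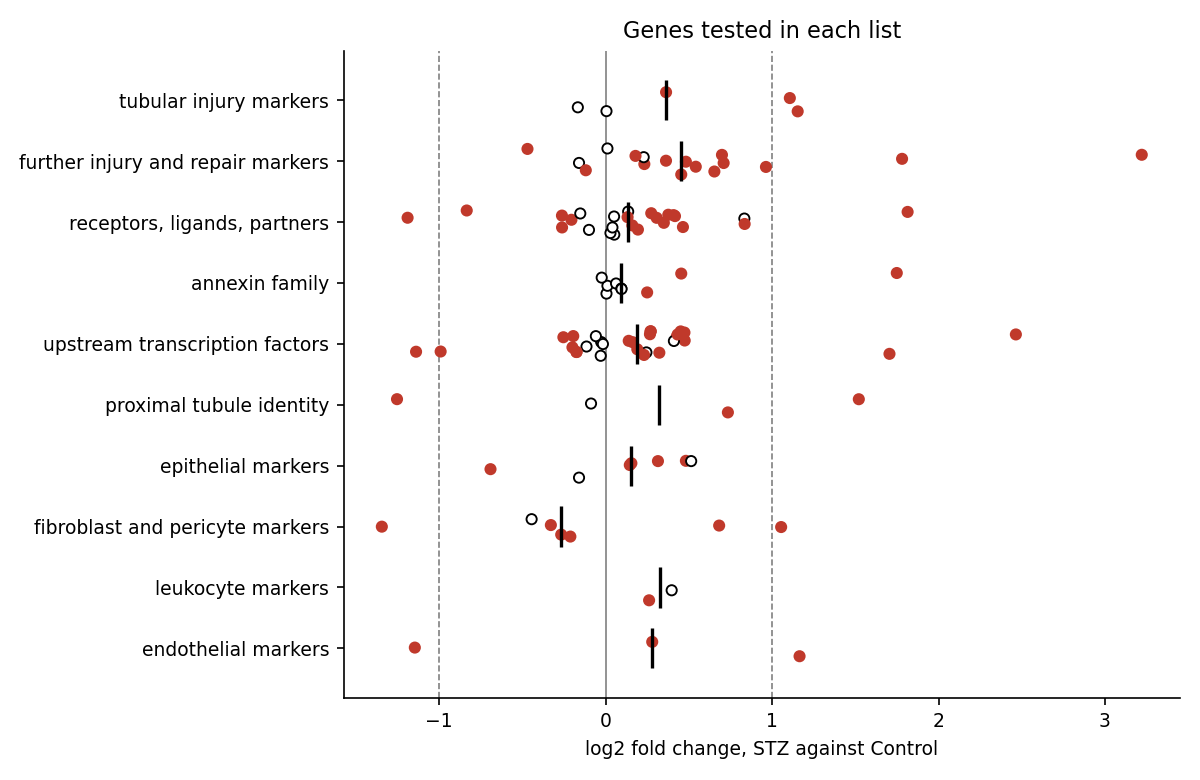
Each point is a gene tested, placed by its log2 fold change of STZ against Control (horizontal axis) in the row of its list, filled red where the adjusted p-value was under 0.05 and open where it was not, with the black bar at the list's median and dashed lines at 1 and -1. The members have a median of 0.36, the further injury markers 0.45 and the upstream factors 0.19, and a gene in several lists is drawn in each.

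The pattern of Clu over the 6 samples was set beside those of 9890 other genes with a symbol and a mean of at least 50 counts. Likeness was the distance over the 6 samples between log2 CPM values, each centred on the Control mean of its gene. The closest gene was Alcam, an adhesion molecule of activated leukocytes and epithelia, at a distance of 0.104, with 60.3, 60.2 and 59.8 CPM in Control and 137, 140 and 137 CPM in STZ. It was followed by Mgst2 (a microsomal glutathione transferase, 0.11), Dhrs9 (a dehydrogenase that acts on retinol, 0.138), the interferon-inducible Ifitm3 (0.152) and the polarity gene Pard6g (0.159). Their log2 fold changes lay between 1.08 and 1.20, around the 1.15 of Clu that chose them. Ifitm3 belongs to a family of similar sequences, so its count is less certain where reads map to several members.

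The labelled identity of the cells was checked against marker lists, and most markers of a mature proximal tubule had few reads. Of 13 such genes in the table, 9 were under the filter, with at most 10 reads in any sample, among them Lrp2, Cubn and Slc34a1. Of the 4 tested, the peptidase Ggt1 rose from 45.1 ± 2.69 to 75.1 ± 6.72 CPM (SD, n = 3), a log2 fold change of 0.73, the water channel Aqp1 fell by 1.25 on the log2 scale, and 1 did not pass. The peptidase Dpp4, with 11, 3 and 9 reads in Control and 33, 19 and 26 in STZ, was higher but passed the filter only through its STZ samples (adjusted p = 8.05e-05 with no filter, edgeR), and with at least 10 counts in every sample 1 gene of the list was higher and 1 lower. Of 11 general epithelial genes found by symbol, 4 were under the filter, with at most 4 reads in any sample, among them Krt18 and Cldn4. Of the 7 tested, 4 were higher and 1 lower, where 25.9% of all genes tested were higher and 25.1% lower. Krt8 (keratin 8) rose by a log2 fold change of 0.48, Pkp2 of desmosomes by 0.31 and the tight junction gene Tjp1 by 0.15, from 612 ± 11.6 to 681 ± 6.31 CPM (SD, n = 3). The 1 that was lower, named after its values were seen, was E-cadherin (Cdh1), with 32, 22 and 35 reads in Control and 23, 25 and 16 in STZ, a log2 fold change of -0.69 (adjusted p = 0.0296 by edgeR). Its groups overlapped, and the call was lost by DESeq2 (adjusted p = 0.113) and without Control replicate 1 (0.113), Control replicate 3 (0.0847), STZ replicate 1 (0.0572) or STZ replicate 3, where the log2 fold change was -0.44 (0.223).

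Genes of other cell types were followed because Vcam1, Cd44 and Spp1 are also made by vessels and leukocytes. Of 9 leukocyte markers in the table, 7 did not exceed 7 reads in a sample, and the pan-leukocyte gene Ptprc had 1 read in all 6 libraries together. Cd14, a receptor for lipopolysaccharide, rose from 102 ± 1.63 to 122 ± 4.08 CPM (SD, n = 3), and Cd68 (log2 fold change 0.40, adjusted p = 0.279 by edgeR) did not pass. The list's summed level was 102 to 105 CPM in Control and 122 to 130 CPM in STZ. Of 9 endothelial markers in the table, 6 did not exceed 9 reads in a sample, with Pecam1 and Cdh5 at 0 to 2, and the sum was 15.6 to 18.3 CPM in Control and 20.5 to 21.8 CPM in STZ. Eng and Egfl7 rose, by log2 fold changes of 1.17 and 0.28. The call of Egfl7 was lost under other scalings (adjusted p = 0.0649 by edgeR with library size only) and without Control replicate 1 (0.256). Vwf fell by 1.15 on the log2 scale, with 36, 24 and 29 reads in Control and 22, 6 and 19 in STZ. Its STZ replicate 2 lay under the filter of 10 counts in every sample, with which 2 endothelial genes were higher and 0 lower. Of 11 fibroblast and pericyte genes found by symbol, 4 were under the filter, with at most 4 reads in any sample, among them Pdgfra and Col1a2. Of the 7 tested, 2 were higher and 4 lower, where 25.9% of all genes tested were higher and 25.1% lower. Tagln and Cspg4 rose by log2 fold changes of 1.05 and 0.68, and Col3a1 fell by 1.35 on the log2 scale. Pdgfrb, Col1a1 and Acta2, named after their values were seen, had log2 fold changes of -0.33, -0.27 and -0.21 (adjusted p = 0.00286, 0.00921 and 0.00359 by edgeR). The groups of Col1a1 overlapped, and the median of the list was -0.27. The sum of that list was 212 to 221 CPM in Control and 215 to 234 CPM in STZ, and the part of such genes in the rises of Clu, Cd44 and Spp1 was not tested.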

How the data were processed

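RNA of NRK-52E cells, 3 Control and 3 STZ samples, was sequenced from TruSeq stranded mRNA libraries. The deposited values are raw counts without normalization: the authors aligned reads with STAR 2.7.10a against Rnor6 and tallied those that mapped uniquely, gene by gene, with featureCounts. The strand setting is not given in the sources used here, and genes with near-identical copies may lose reads.

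Low counts were removed with edgeR's filterByExpr, libraries were scaled by TMM, and 11870 genes were tested by quasi-likelihood (edgeR 4.0.16, R 4.3.3) with p-values adjusted after Benjamini and Hochberg. Standard errors are the absolute log2 fold change over the square root of F. On simulated counts (11777 genes tested, 200 changed by a log2 fold change of 1 or -1), 190 of the changed and 14 of the unchanged genes were called. Far fewer genes were changed there than the 50.9% called in the data, so the simulation does not measure the error rate of these calls. Alternatives were 3 filters, 3 scalings, 4 tests (DESeq2 1.42.0 and voom of limma 3.58.1 among them), a replicate block, and 6 fits that omitted 1 sample each.

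Members and lists were chosen with earlier results of these data known. Named are the members, all annexins tested, the 5 genes of smallest p in each other list (3 for cell types) and the 5 most like Clu. Others are marked as named later. Transcript lengths were not used. An exact permutation test of 3 against 3 samples cannot go under p = 0.1 and was not run.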

Additional observations from a re-analysis of the deposited data

How the results depend on the processing

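Clu, Cd44 and Spp1 were called higher under all 17 alternatives, with log2 fold changes of 1.12 to 1.17, 1.03 to 1.17 and 0.33 to 0.38. Across these settings 3 members were higher, 0 were lower and 2 passed both thresholds. The median of the members tested was 0.33 to 0.38 with one sample left out, and 0.27 with no filter, where all 8 had a value. Lcn2 stayed under the threshold, between -0.37 and -0.017. Anxa2 never passed, and its sign turned with at least 0.5 CPM in 1 sample (-0.0020), library size only (-0.029), the upper quartile (-0.015), and without Control replicate 3 (-0.018) or STZ replicate 1 (-0.0036), within a range of -0.018 to 0.029 when 1 sample was omitted. That of Anxa3 turned with library size only (-0.023) and the upper quartile (-0.0088), and that of Anxa6 without Control replicate 2 (0.017) or STZ replicate 3 (0.0030), within -0.062 to 0.017. These values are close to 0, and the cause was not tested.

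Annexins past the threshold numbered 3, and 5 under either the filter of 10 counts in every sample or the replicate block, where Anxa7 (adjusted p = 0.0428 and 0.0478 by edgeR) and Anxa11 (0.0425 and 0.0458) passed. Omitting 1 sample gave 3 to 4. Egfl7 lost its call under 6 alternatives (adjusted p up to 0.256 by edgeR). Vim, Il18r1 and Cdh1 lost theirs under 1, 4 and 5 alternatives. Of 964 refits of 57 of the genes named, 933 kept direction and side of the threshold. The 400 genes past both thresholds became 249 under the filter of 10 counts in every sample, where fewer genes were tested, 585 with no filter, 565 with at least 0.5 CPM in 1 sample, and 403 to 462 with one sample left out. Library size only shifted the median of all genes to -0.039.

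Same-numbered Control and STZ samples share only a number: their deviations from the group means correlated at 0.0319, -0.0389 and 0.102 across 10341 genes, which are not independent. With the replicate block 398 genes passed both thresholds, 3 members were higher, and of the same 57 genes the call changed for Anxa7 and Anxa11. Depth limits Havcr1, Il18 and Vcam1, which lay under the filter, and Lcn2. Levels per transcript length, planned with an alternative length, were not run, because no lengths were used here.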
